A study of Mus musculus with 2 samples.

Results

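The postsynaptic scaffold genes Dlg1 to Dlg4, Shank1 to Shank3 and Homer1 to Homer3 were followed in total RNA of the embryonic mouse hindbrain. These 10 genes were taken by name from the 43346 Ensembl genes of the gene tables, and their 86 transcript models from the 103639 Ensembl models of the transcript tables. The tissue was hindbrain at embryonic day 13.5, from strain B6NCrl with male and female embryos pooled. There were 2 libraries, numbered as biological replicates 1 and 2, each from 10 ng of RNA over 200 nt, and they form 1 group with no treatment, mutant or second age. Both carry the same donor label with different biosample labels, so part of their spread may be technical.

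Dlg, Shank and Homer proteins build the layered scaffold under excitatory synapses. Dlg proteins are membrane-associated guanylate kinases whose PDZ domains hold glutamate receptors and adhesion proteins at the membrane. Shank proteins form the deeper layer and are joined to Dlg by the Dlgap adaptors, and Homer proteins join Shank to group I metabotropic glutamate receptors and to calcium channels of the endoplasmic reticulum. Long Homer proteins carry a coiled coil through which they assemble, whereas the short Homer1a lacks it and in adult forebrain neurons is made upon activity.

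The libraries held 33080194 estimated counts (replicate 1) and 38756411 (replicate 2), estimated counts being reads that were divided among models where they matched several. Of 10 hindbrain markers all were detected, meaning a level of at least 1 TPM (a level per length, relative to all transcripts of the library) in both libraries, against 1 of 8 forebrain markers, Lhx2. The 10 neuron markers summed to 4505 and 4329 TPM, the 10 neural progenitor markers to 2817 and 3098 TPM, and the 6 erythroid markers to 11415 and 12308 TPM in replicates 1 and 2. Among 9 mesenchyme and muscle markers 7 were detected, and their sum was 656 TPM in replicate 1 and 506 TPM in replicate 2. All 6 endothelial markers were detected. Marker genes that differed by at least 1.5-fold with an adjusted p under the threshold in the exact binomial test included Col1a1 at 176 and 104 TPM, Des at 1.46 and 2.3 TPM, Myh3 at 0.73 and 1.44 TPM, and Nkx2-1, listed at 0 in replicate 1 and at 0.25 TPM in replicate 2. In bulk RNA, fewer cells of a type and less RNA per cell cannot be told apart.

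All 10 scaffold genes were detected, where 35.4% of all Ensembl genes were. Their median level was 10.5 TPM in replicate 1 and 10.2 TPM in replicate 2, beside a median of 16.1 TPM for the mean level of the 15342 detected genes and 3.17 TPM for the 25551 genes with a count. Homer3 and Shank1 had the highest levels per length, and Shank2 and Homer2 the lowest.

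**Figure D1:**
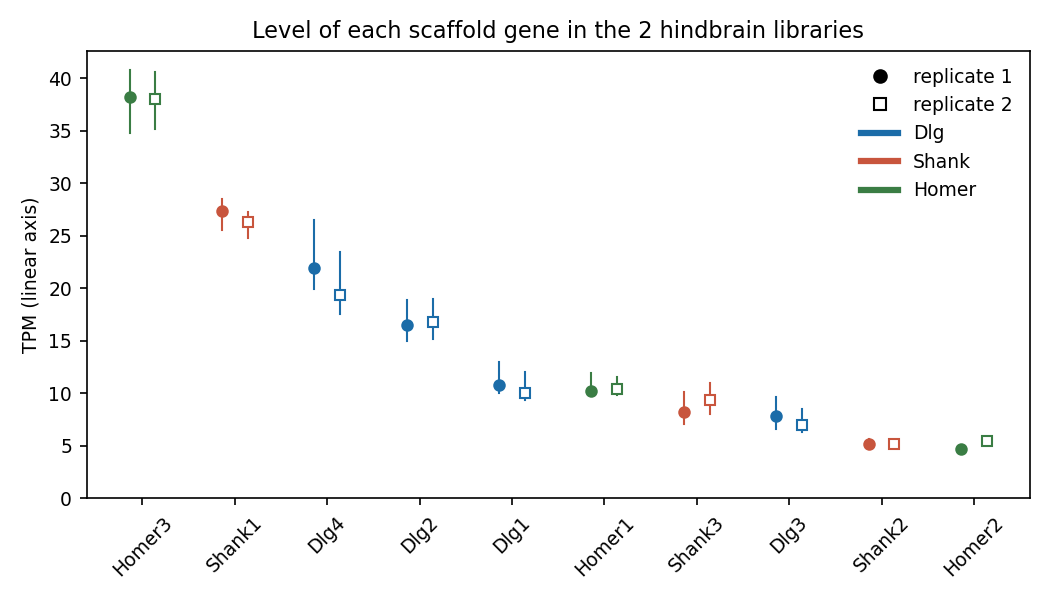
TPM of each scaffold gene (vertical axis, linear) in replicate 1 (filled circles) and replicate 2 (open squares), with the deposited credibility interval of each library as a line; colours mark the family. Homer3 lies near 38.1 TPM and Homer2 near 5.09 TPM, and the intervals of the libraries are disjoint for Homer2.

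Among the Dlg genes, Dlg4 (PSD-95, the major scaffold of mature excitatory synapses; chr11:70016942-70047522, plus strand, GRCm38) had 21.93 TPM in replicate 1 and 19.38 TPM in replicate 2, a mean of 20.7 ± 1.80 TPM (SD, n = 2). Dlg2 (PSD-93; chr7:90476672-92449247, plus strand) had 16.53 and 16.81 TPM, a mean of 16.7 ± 0.198 TPM (SD, n = 2). Dlg1 (SAP97, which also acts in epithelial polarity; chr16:31663443-31875129, plus strand) had 10.84 and 10.07 TPM. These 3 levels did not overlap between genes in either library. Dlg3 (SAP102, the Dlg protein associated with immature synapses; chrX:100767722-100818410, plus strand) was the lowest of the family, with 7.84 and 7 TPM. Of the summed Dlg level of 57.14 and 53.26 TPM, Dlg4 held 37.4% ± 1.41, Dlg2 30.2% ± 1.86, Dlg1 18.9% ± 0.0450 and Dlg3 13.4% ± 0.408 (SD, n = 2). Of the family's reads (CPM, not divided by length) Dlg2 held 30.9%, Dlg1 25.7%, Dlg4 22.7% and Dlg3 20.7%, so Dlg4 led per length only.

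Among the Shank genes, Shank1 (chr7:44310253-44360572, plus strand) had 27.36 and 26.31 TPM. Shank3 (the gene deleted or mutated in Phelan-McDermid syndrome in humans; chr15:89499623-89560261, plus strand) had 8.25 and 9.33 TPM, and Shank2 (chr7:144001928-144424494, plus strand) had 5.22 and 5.2 TPM. Shank1 thus held 65.7% ± 1.83 of the family's TPM, Shank3 21.5% ± 1.87 and Shank2 12.8% ± 0.0368 (SD, n = 2). In CPM Shank1 held 77.6%, Shank2 16.5% and Shank3 5.83% of the family's reads, so the order of Shank3 and Shank2 turned. Of the Shank3 level, 6.91 and 7.44 TPM lay on Shank3-207, a model of 719 bases with 88.5 and 113 estimated counts. The family sum was 40.83 TPM in replicate 1 and 40.84 TPM in replicate 2.

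Among the Homer genes, Homer3 (chr8:70282827-70294361, plus strand) had 38.2 and 38.04 TPM, Homer1 (chr13:93299635-93405129, plus strand) 10.24 and 10.37 TPM, and Homer2 (chr7:81600481-81707527, minus strand) 4.69 and 5.5 TPM. Homer3 held 71.2% ± 0.945 of the family's TPM, Homer1 19.3% ± 0.0267 and Homer2 9.51% ± 0.972 (SD, n = 2). In CPM Homer3 held 42.9%, Homer2 35.9% and Homer1 21.2% of the family's reads, so the order of Homer1 and Homer2 turned.

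In order of mean level, the scaffolds ran Homer3, Shank1, Dlg4, Dlg2, Dlg1, Homer1, Shank3, Dlg3, Shank2 and Homer2. The library values of Dlg1 and Homer1 overlapped, as did those of Shank2 and Homer2, so neither order within those neighbours exceeds the spread. The deposited intervals also overlapped between Shank1 and Dlg4, Dlg4 and Dlg2, Homer1 and Shank3, and Shank3 and Dlg3. They did not overlap between Homer3 and Shank1, Dlg2 and Dlg1, or Dlg3 and Shank2.

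The place of Homer2 depended on the length of its model. Its reads, 1056 estimated counts in replicate 1 and 1463 in replicate 2, were all placed on Homer2-201, which is 10999 bases long in the deposited tables and 1736 bases in GENCODE M21. With M21 lengths and the deposited read assignment, a calculation added after the data were seen, Homer2 had 31.2 and 36.6 TPM and stood next to Homer3, which had 38.2 and 38.0 TPM. The share of Homer3 in its family was then 47.3% ± 2.30 and that of Homer2 42.0% ± 2.81 (SD, n = 2). Shank1 had 21.7 and 20.8 TPM with those lengths. For Homer2, reads assigned over 10999 bases were here divided by 1736. M21 also holds Homer2-202, 10982 bases long, to which part of these reads could be assigned under that annotation. The recomputed values thus show dependence on model length and are not levels measured under M21. In CPM, counts scaled to the library total and not divided by length, Shank1 came to 120 and 119 and Homer3 to 41.6 and 43.6. Homer2 came to 32.7 and 38.7, rank 3 of the 10 genes by mean CPM.

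**Figure D2:**
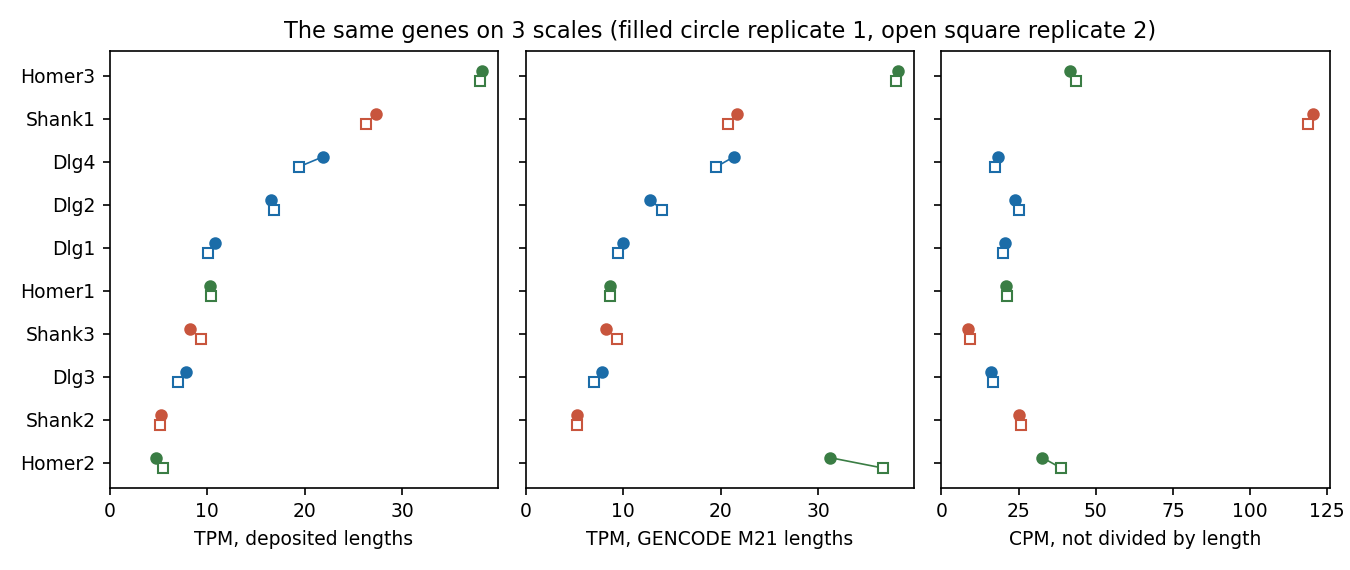
Each scaffold gene (rows, in order of deposited TPM) in replicate 1 (filled circles) and replicate 2 (open squares) as deposited TPM, TPM recomputed with GENCODE M21 lengths, and CPM; every horizontal axis is linear and starts at 0. Homer2 moves from the bottom row's low TPM of 4.69 and 5.5 to 31.2 and 36.6 with M21 lengths, the deposited read assignment being kept.

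Homer3 and Shank3 have estimated counts that are not whole. Homer3 shares 874 exonic bases with Ddx49 on the opposite strand, and its 1345.67 and 1646.79 counts add with those of Ddx49, 1384.33 and 1552.21, to the whole numbers 2730 and 3199. Shank3 shares 271 exonic bases with Gm15609 on the opposite strand, and the counts of that pair sum to 348 and 429. Reads were therefore divided between genes on opposite strands, and the levels of Homer3 and Shank3 hold this uncertainty. Counts of the other 8 genes were whole. Shank1 overlaps 1700008O03Rik, with 37 and 57 counts, over 339 exonic bases on the opposite strand.

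For each of 19687 genes the counts of the libraries were set against each other in an exact binomial test (two-sided, Benjamini-Hochberg adjusted), which covers counting error between 2 libraries and no condition. Homer2 was the 1 scaffold of 10 called different, beside 12.6% of all genes tested, and it was lower in replicate 1, as 7.07% of genes were. It had 4.69 TPM in replicate 1 and 5.5 TPM in replicate 2, a log2 ratio of -0.25 (adjusted p = 0.00041, exact binomial), and its deposited intervals, 4.29 to 4.84 and 5.11 to 5.66 TPM, were disjoint, as for 6.24% of genes with a count. When the libraries were scaled to the spike-ins, the median log2 ratio of all genes was 0.14, Homer2 had -0.11 (adjusted p = 0.133, exact binomial) and 3 of the 10 scaffolds, Dlg1, Dlg4 and Shank1, were called higher in replicate 1, where 40.4% of all genes tested were called, 7390 higher and 556 lower in replicate 1. Of the neural progenitor markers 2 were called higher and 7 lower in replicate 1, of the neuron markers 4 higher and 1 lower, and of the hindbrain markers 6 lower; their part in the difference of Homer2 was not tested.

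The transcript tables divide each gene among its models. Sequences around the end of exon 5 of Homer1 (chr13, plus strand, GRCm38, GENCODE M21) are shown because the long and short forms part there. Lower case marks the last 30 bases of exon 5, and capitals mark what follows: to the stop codon in the short models Homer1-204, Homer1-207 and Homer1-206, and for 36 bases in the long models Homer1-203 and Homer1-202.
Homer1-204: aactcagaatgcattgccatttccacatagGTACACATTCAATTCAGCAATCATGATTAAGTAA
Homer1-207: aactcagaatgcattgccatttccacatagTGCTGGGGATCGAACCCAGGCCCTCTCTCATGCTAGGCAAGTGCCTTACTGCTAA
Homer1-206: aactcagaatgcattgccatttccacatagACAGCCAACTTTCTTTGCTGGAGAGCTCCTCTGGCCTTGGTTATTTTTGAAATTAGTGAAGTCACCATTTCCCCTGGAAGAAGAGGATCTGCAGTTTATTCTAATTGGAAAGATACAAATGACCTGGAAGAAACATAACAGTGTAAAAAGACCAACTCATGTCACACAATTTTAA
Homer1-203: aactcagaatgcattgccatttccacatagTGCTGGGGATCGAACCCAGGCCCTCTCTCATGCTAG
Homer1-202: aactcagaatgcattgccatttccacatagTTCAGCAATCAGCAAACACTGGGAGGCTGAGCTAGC

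In Homer1-204, the model of Homer1a, the capitals run straight on from exon 5 into the intron (chr13:93356050-93356113 in all). In Homer1-207 and Homer1-203 they begin with the same bases at chr13:93386345, whereas Homer1-202 joins exon 5 to the exon at chr13:93387524.

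Long Homer1 models, with at least 1000 coding bases, held 77.5% of the gene's TPM in replicate 1 and 73.0% in replicate 2, a mean of 75.2% ± 3.16 (SD, n = 2). Short models held 22.5% and 27.0%, all of it on 4 models that end before the exon that Homer1-202 uses. The level of the long models was 7.94 and 7.57 TPM and that of the short ones 2.31 and 2.8 TPM, so long exceeded short 3.44-fold in replicate 1 and 2.70-fold in replicate 2. The model of Homer1a, Homer1-204, had 0.71 and 0.8 TPM on 82.2 and 110 estimated counts. This was 6.92% and 7.74% of the gene's TPM and 12.2% and 13.6% of its estimated counts. Because this model runs on into the intron, reads of unspliced Homer1 RNA could also be placed on it, which was not tested. Homer1-207 held 8.57% and 12.46%, and Homer1-206 5.69% and 5.75%. The remaining short models were at or near 0, Homer1-205 with 2 and 1.88 counts. Homer1-202 was the leading long model with 60.4% and 66.0%. It is 3287 bases long as deposited and 4287 in M21, so the ratio of long to short depends on that length. Homer1-203 held 17.06% in replicate 1 and 6.98% in replicate 2. The posterior mean TPM gave the short models 30.1% ± 0.847.

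**Figure D3:**
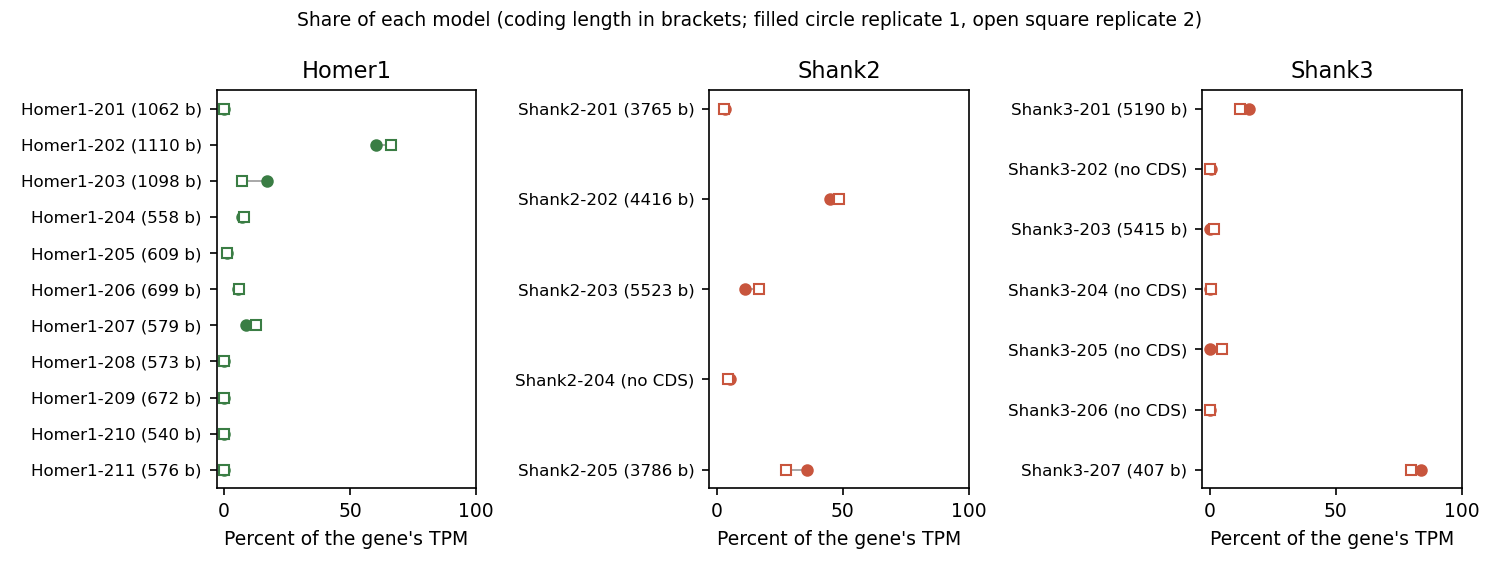
Share of the gene's TPM (horizontal axis, percent) on each model of Homer1, Shank2 and Shank3 in replicate 1 (filled circles) and replicate 2 (open squares), with the coding length in GENCODE M21 in brackets. Homer1-202 leads Homer1 at 60.4% and 66.0%, Shank2-202 leads Shank2, and Shank3-207 leads Shank3.

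Dlg4 has an alternative exon of 110 bases (chr11:70043658-70043767, plus strand, GRCm38) whose skipping, in mouse, sends the transcript to nonsense-mediated decay under repression by the splicing factors Ptbp1 and Ptbp2. It is shown in capitals with 15 bases of each neighbouring exon in lower case.
Dlg4-204: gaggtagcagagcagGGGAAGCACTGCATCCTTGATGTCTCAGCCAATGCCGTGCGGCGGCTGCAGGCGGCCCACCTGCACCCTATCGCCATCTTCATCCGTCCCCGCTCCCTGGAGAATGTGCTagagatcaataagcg

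Dlg4-205, which lacks this exon in GENCODE M21 and is annotated there as a decay target, had 1.54 and 0.5 TPM on 20.0 and 7.68 estimated counts. This was 20.4% in replicate 1 and 7.31% in replicate 2 of the TPM on it and the 3 models that hold the exon in M21, a mean of 13.9% ± 9.27 (SD, n = 2). Of the estimated counts on the same models it was 4.83% and 1.55%. Dlg4-205 is 729 bases long in the deposited tables and 2888 in M21, so whether the deposited model skips the exon is not known. Of the 6 listed regulators of Dlg4 splicing all were detected. Ptbp2 had 169 and 172 TPM, Rbfox1 122 and 106 TPM, Rbfox2 84.9 and 84.7 TPM, and Ptbp3, the lowest, 17.2 and 17.6 TPM; Rbfox1 was called higher in replicate 1.

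By GENCODE M21 coordinates, most of the Dlg4 level lay on models that begin inside the gene. The 4 models with an internal start held 76.3% and 75.9% of TPM and 73.9% and 82.0% of estimated counts. By TPM they were led by the short Dlg4-208 with 33.54% and 29.98%, followed by Dlg4-201 with 19.15% and 26.88%. Dlg4-213 held 10.31% and 13.1%, and the retained intron Dlg4-212 13.31% and 5.9%. By estimated counts Dlg4-201 led with 269 and 395, before Dlg4-208 with 113 and 106. The 5 models with an upstream start, Dlg4-205 aside, held 8.21% and 6.71% of TPM and 21.2% and 14.3% of estimated counts. Dlg4-208, Dlg4-201 and Dlg4-213 have other lengths in M21 than in the deposited tables, so their deposited starts are not known. The M21 coding lengths of Dlg4-208 and Dlg4-213, 728 and 347 bases, are not whole codons, so these models may be incomplete. Models under 1000 bases carried 70.0% ± 3.79 of the TPM of Dlg4 but 29.7% ± 4.77 of its estimated counts (SD, n = 2).

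Shank2 and Shank3 use alternative starts, and their openings are shown because the starts define the forms. The first 60 coding bases follow, with the start codon in capitals, for Shank2 (chr7) from the upstream, middle and downstream start and for Shank3 (chr15) from the full-length and the internal start, all plus strand, GRCm38, GENCODE M21.
Shank2-203: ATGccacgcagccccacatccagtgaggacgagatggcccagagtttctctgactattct
Shank2-202: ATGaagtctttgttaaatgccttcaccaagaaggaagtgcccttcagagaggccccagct
Shank2-205: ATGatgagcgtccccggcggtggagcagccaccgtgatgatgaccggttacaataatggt
Shank3-201: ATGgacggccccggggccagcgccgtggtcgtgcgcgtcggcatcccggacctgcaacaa
Shank3-207: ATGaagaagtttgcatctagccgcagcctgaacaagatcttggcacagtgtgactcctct

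These coding starts lie at chr7:144031264, chr7:144175920 and chr7:144284969 for Shank2 and at chr15:89499857 and chr15:89533202 for Shank3. For Shank2 the middle start held most, 44.7% and 48.5% of TPM, the downstream start 38.9% and 30.4%, and the upstream start, which gives the longest coding sequence, 11.3% and 16.7%. The order of the 3 starts was the same in both libraries.

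For Shank3 the scale decided which models led. The short Shank3-207, 719 bases long, held 83.8% and 79.7% of TPM but 31.6% and 32.2% of estimated counts, on 88.5 and 113 counts. Its 407 coding bases are not whole codons, so the model may be incomplete. The full-length models Shank3-201 and Shank3-203 held 15.5% and 14.1% of TPM and 66.4% and 64.8% of counts. Shank1 lay almost wholly on Shank1-203, with 91.1% and 92.5% of TPM.

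Homer3-201 and Homer3-203 together held 63.5% and 68.1% of the TPM of Homer3, and models annotated as retained introns most of the rest, led by Homer3-207 with 23.36% and 18.74%. Dlg2 had the lowest protein coding share of the 10 genes: protein coding models held 17.7% ± 1.11 of its TPM, retained introns 49.1% ± 0.859 and processed transcripts 33.3% ± 0.254 (SD, n = 2). Of estimated counts, protein coding models held 38.4% ± 1.43 for Dlg2, again the lowest of the 10 genes, 66.2% ± 5.78 for Dlg1 and 64.7% ± 0.0615 for Dlg3. The leading models of Dlg2 were nearly level between the libraries, the retained introns Dlg2-209 with 27.57% and 27.42% and Dlg2-206 with 16.89% in each, and the processed transcript Dlg2-207 with 27.04% and 25.52%. All types are those of GENCODE M21. Dlg2-209 is 1926 bases long in the deposited tables and 4236 in M21, and Dlg2-207 is 817 and 964. Whether these deposited models have the structure of their M21 type is not known. Dlg3 was led by the processed transcript Dlg3-208 with 28.09% and 38.72%, before the protein coding Dlg3-201 with 19.65% and 27.91% and Dlg3-202 with 8.41% and 15.86%. The share of Dlg2 on models not annotated as protein coding, 82.3%, exceeded that of 97.6% of the 9756 detected protein coding genes with at least 2 models, whose median was 8.97%. It was 52.5% for Dlg1, 51.9% for Dlg3, 30.6% for Homer3 and 22.9% for Dlg4. For Homer1 and Homer2 it was 0 by construction, since all their models are annotated as protein coding. Of the Dlg1 level, 18.4% ± 2.02 lay on models annotated as nonsense-mediated decay targets, nearly all on Dlg1-209 with 18.57% and 14.51%. The processed transcript Dlg1-213 held 13.35% and 11.61%, on 11.1 and 10.6 estimated counts.

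**Figure D4:**
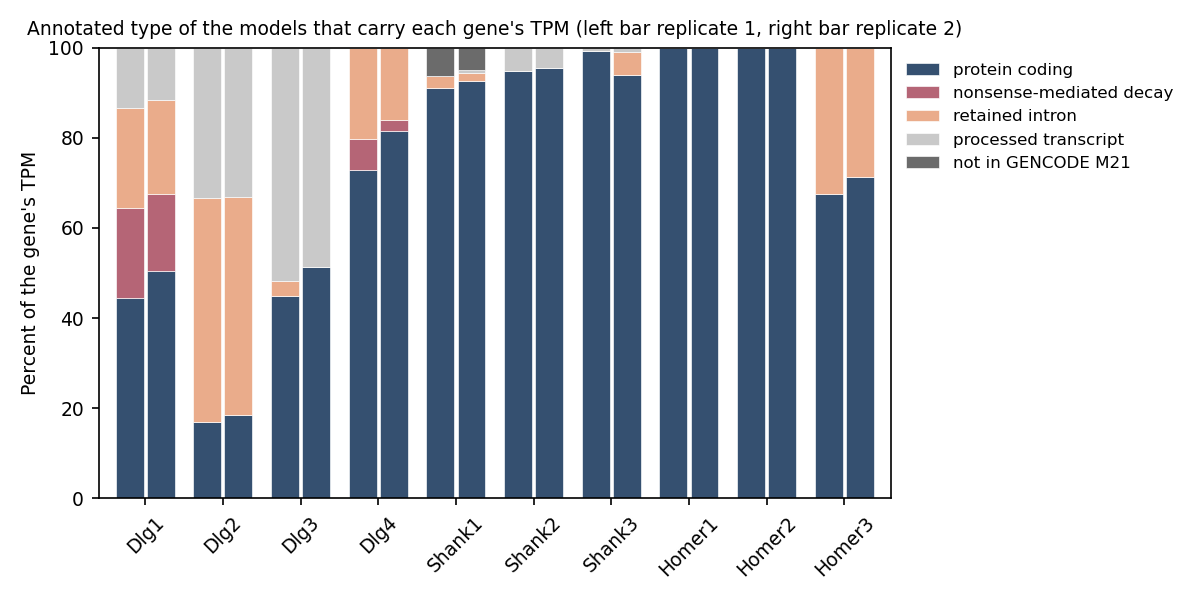
Percent of each gene's TPM (vertical axis) on models of each type annotated in GENCODE M21, stacked, with replicate 1 as the left and replicate 2 as the right bar. Protein coding models carry 17.7% of Dlg2 on average and all of Homer1 and Homer2, which have no models of another type.

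Of the 86 models 17 were at 0 in both libraries, and 6 moved by more than 10 points of their gene's TPM. The deposited intervals were disjoint for 1 model, Homer2-201, which carries all reads of Homer2 and so repeats the result of its gene. Dlg2-201 held 0 and 14.58% and Dlg2-204 14.55% and 0.16%, while their sum was 14.6% and 14.8%. Dlg3-207 held 20.64% in replicate 1, on 7.59 counts, and 0 in replicate 2. The leading model was the same in both libraries for 9 of the 10 genes, the exception being Dlg1, led by Dlg1-206 in replicate 1 and Dlg1-202 in replicate 2. Such counts were not made over all Ensembl models or genes, so they do not show whether the scaffolds differ from other genes. The longest coding sequences were 68.5% to 73.7% identical among Dlg genes, 64.7% to 66.1% among Shank genes and 61.3% to 65.6% among Homer genes over aligned bases.

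Partners of the scaffolds were detected as well. Beside the lists that follow, 35.4% of all Ensembl genes were detected. The exact binomial test called 12.6% of all genes tested, 5.49% higher and 7.07% lower in replicate 1. No list was tested against these shares. Of 20 genes listed as adaptors and enzymes bound to Dlg or Shank, 19 were detected, with a median of 8.24 TPM. Of these genes 2 were called higher in replicate 1 (Dlgap1 and Baiap2) and none lower. Dlgap4, of the family that joins Dlg to Shank, had 194 and 189 TPM, and cortactin (Cttn), which binds Shank, 151 and 148 TPM. Kif1bp, also on that list, had 55.1 and 55.5 TPM, and whether it binds Dlg or Shank itself was not checked. Neuronal nitric oxide synthase (Nos1) was the lowest detected at 1.32 and 1.3 TPM, and the potassium channel Kcnj2 at 0.92 and 1.11 TPM was not detected. Among 12 Homer ligands 10 were detected, with a median of 2.99 TPM. Cdc42 had 684 and 682 TPM, drebrin (Dbn1) 500 and 507 TPM, and the metabotropic receptor Grm5 13.7 and 13.6 TPM. The calcium channel Ryr2 had 1.1 and 1.05 TPM and Itpr3, not detected, 0.99 and 0.85 TPM. Of these ligands 1 was called, Dbn1, lower in replicate 1.

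Of 15 ionotropic glutamate receptor genes 14 were detected, with a median of 10.8 TPM. The AMPA receptor subunit Gria2 led with 106 and 103 TPM, followed by Gria4 with 25.9 and 22.5 TPM and Gria1 with 21.3 and 23.6 TPM. The NMDA receptor subunit Grin2d was the lowest detected at 1.43 and 1.6 TPM, and Grin2c was at 0.17 and 0.18 TPM. Gria4 and Grik2 were the 2 called, 1 in each direction. All 8 AMPA receptor auxiliary genes were detected (median 7.3 TPM; 1 called, Cacng5, lower), led by Cnih2 at 278 and 275 TPM, Cacng4 at 40.7 and 40.6 TPM and Cacng2 at 8.73 and 8.54 TPM, with Cacng8 lowest at 2.42 and 2.33 TPM.

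The 10 postsynaptic adhesion genes had a median of 25.7 TPM, led by the latrophilins Adgrl2 (66.6 and 72.0 TPM, the 1 called, lower in replicate 1) and Adgrl3 (48.7 and 49.2 TPM) and the neuroligin Nlgn3 (48.0 and 48.7 TPM), with Lrrtm2 lowest at 5.49 and 5.41 TPM. The 21 other MAGUK and PDZ scaffolds, all detected, had a median of 14.8 TPM, from Lin7c at 146 and 143 TPM, Pick1 at 74.5 and 68.8 TPM and Mpp6 at 38.6 and 40.5 TPM to Magi3 at 2.67 and 2.75 TPM; Cask and Mpp1 were called, 1 in each direction. The 4 inhibitory postsynaptic scaffolds found of 5 had a median of 26.3 TPM. Gephyrin (Gphn) had 29.1 and 28.7 TPM, Lhfpl4 44.9 and 41.6 TPM and Insyn1 3.37 and 4.58 TPM, the last pair being called, 1 in each direction.

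The 13 presynaptic active zone scaffolds had a median of 14.9 TPM, from Erc1 at 33.8 and 34.0 TPM, Erc2 at 29.9 and 28.6 TPM and Ppfia1 at 20.2 and 20.8 TPM to Rimbp2 at 2.41 and 1.88 TPM, and none was called. The 9 genes of Dlg4 palmitoylation, the lipid switch that holds Dlg4 at the membrane, had a median of 26.9 TPM, led by the depalmitoylase Abhd17a at 76.6 and 78.1 TPM and the palmitoyltransferases Zdhhc3 at 65.3 and 65.0 TPM and Zdhhc17 at 31.4 and 31.2 TPM, with Zdhhc15 lowest at 4.22 and 3.77 TPM; Abhd17b and Abhd17c were called lower in replicate 1. Activity-induced genes, the class to which Homer1a belongs in adult forebrain, had the lowest median of these partner lists, 1.92 TPM, with 8 of 12 detected and none called. Junb had 4.17 and 4.78 TPM, Nr4a1 3.71 and 4.02 TPM, Egr2 3.34 and 3.06 TPM, Arc 1.41 and 1.5 TPM and Npas4 0.35 and 0.31 TPM.

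**Figure D5:**
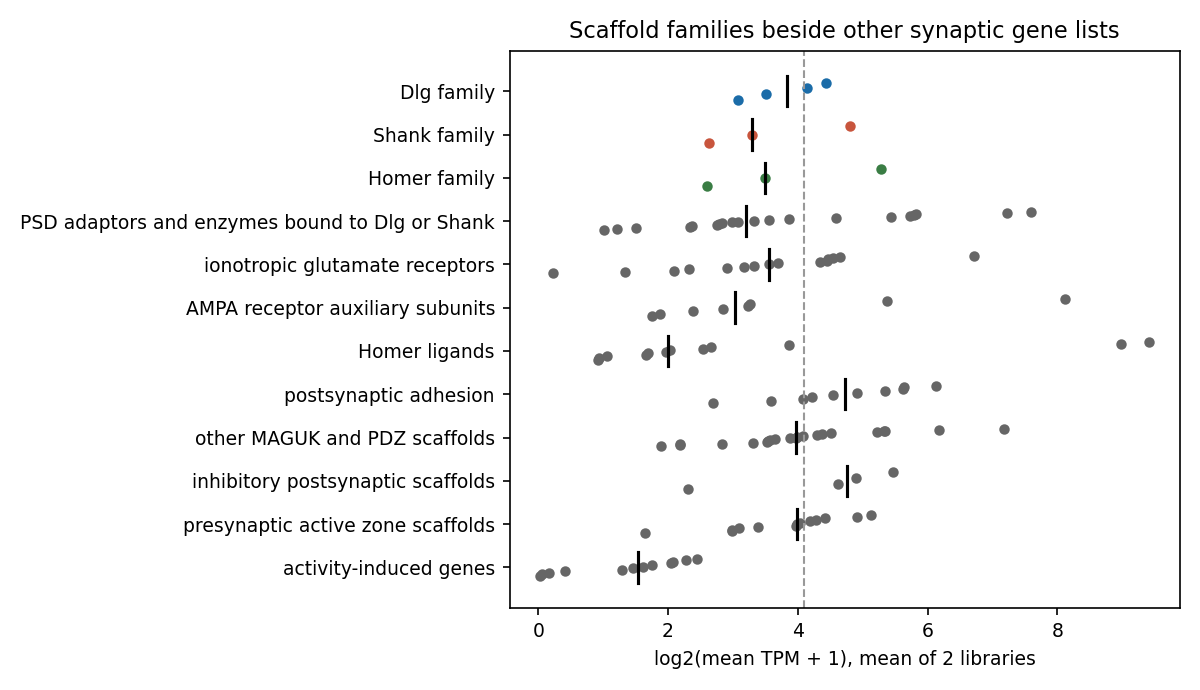
Mean level of each gene as log2(mean TPM + 1) (horizontal axis, over the 2 libraries) by list (rows), with the list median as a black bar and the median of all detected genes as a dashed line. The scaffold families have medians between 8.79 and 13.6 TPM, left of the 16.1 TPM of all detected genes.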

How the data were processed

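The authors made the estimated counts by assigning reads to genes and transcripts, as deposited in a gene and a transcript table per library. The deposited tables also hold TPM, FPKM, posterior mean TPM with credibility bounds of unstated level, and the percent of a gene's TPM on each transcript. Assembly mm10 and annotation GENCODE M4 are named in the deposited notes. Which aligner and counting program were run, and whether strand was used, is not given in the sources used here. Names, positions, model types and sequences came from GENCODE M21 (GRCm38) by identifier; 42462 of 43346 genes matched. Of the 86 scaffold models 63 had the same length in M21, 22 another and 1 was not matched.

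Estimated counts were rounded and scaled by TMM (edgeR 4.0.16, R 4.3.3). Genes reaching 10 counts over both libraries were tested with a two-sided exact binomial test (SciPy 1.17.1), adjusted by Benjamini-Hochberg at 0.05. On data simulated with counting error only (Poisson) over 19716 genes it called 90% of 100 genes changed 1.5-fold and 0.041% of unchanged genes. That simulation holds only the error the test assumes, so its rates do not carry over to these libraries, where 12.6% of genes were called. The p-values of the test cover counting error only, since it has no term for spread between libraries. Where reads lack molecular identifiers, copies of 1 molecule count as separate reads, so even that error can be understated. Replicates of 1 group hold no contrast between conditions to test. The spread between the libraries beyond counting error, fitted in common to the genes by edgeR, was a coefficient of variation of 6.30%. The exact binomial test does not use it. Coding sequences were aligned globally with Biopython 1.88. DESeq2 1.42.0 size factors, spike-in totals, other filters, units and each library alone were alternatives.

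The members and lists were chosen with earlier results of these data known. Named were all members, the 3 highest, the lowest detected and the highest not detected gene of each pathway list, list genes called at 1.5-fold or more, models with at least 10% of their gene's TPM, and short Homer1 models; some genes that this rule names are left out. Called list genes below that fold, and some models, were named after their values were seen.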

Additional observations from a re-analysis of the deposited data

How the results depend on the processing

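The median level of the scaffolds, 10.4 TPM, was 10.9 as posterior mean TPM, 11.0 relative to Ensembl genes only, 11.6 with GENCODE M21 lengths (added after seeing the data), 6.51 in FPKM and 22.7 in CPM, the last 2 being other units. The list median of log2(TPM + 1), 3.51, was 3.39 with a pseudocount of 0.1. All 10 genes stayed detected under the alternatives except at 5 TPM, where 9 did. In CPM the family shares were 22.7% for Dlg4, 77.6% for Shank1 and 42.9% for Homer3, so that Dlg4 no longer led its family. With M21 lengths and the deposited read assignment they were 40.1%, 60.2% and 47.3%. Short Homer1 was 30.1% by posterior mean TPM. The internal start of Dlg4, set by M21 coordinates, held 76.1% of TPM. Its share was 68.5% by posterior mean TPM, 78.0% of estimated counts, 86.2% of protein coding models and 79.0% of models with at least 10 counts. Shank3-207, 81.8%, was 78.7% by posterior mean TPM, 31.9% of estimated counts and 84.7% under each of the other filters. Spike-in scaling called 3 scaffolds in place of 1, and 40.4% of all genes in place of 12.6%. It adds the same 0.14 to every log2 ratio, by which 6 ratios near 0, called under neither scaling, changed sign: Dlg2 to 0.059, Dlg3 to 0.086, Shank2 to 0.10, Shank3 to 0.040, Homer1 to 0.096 and Homer3 to 0.071. With 2 libraries, either alone lies within 1 SD of their mean by construction, which says nothing about stability.

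No paired analysis was possible because the 2 libraries form 1 group. Several single models rest on few counts, and deposited and M21 models differ in length, which limits what the shares show.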
